A study of Arabidopsis thaliana with 9 samples.

Results

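Within each of the 3 genotypes of this series 1 library, the one numbered 3, was set against the 2 libraries numbered 1 and 2. The 3 libraries WT 3, cuc2-3 3 and CUC2gm-4 3 were chosen by the replicate number in the labels alone, and they are compared with the other 6 of the 9 libraries. Genotype was held as a block, so each number 3 library is read against the libraries of its own genotype. The plants were Arabidopsis thaliana of the Col0 ecotype: the mutant lines cuc2-3 and CUC2gm-4 and the wild type (WT). All plants were 21 days old, grown on soil without treatment at 21 °C and 65% humidity, with 8 h of light and 16 h of darkness a day, and the aerial organs were taken. Messenger RNA was sequenced with strand-marking single-end libraries on an Ion Torrent Proton, and reads were counted per gene. Levels are given in normalised CPM, a gene's counts scaled to the library's TMM-adjusted total by edgeR, and differences as log2 fold changes of replicate 3 over replicates 1 and 2. CUC2 encodes a NAC transcription factor of organ boundaries and leaf margins, and the series asks how CUC factors act in leaf development. The labels do not say what a replicate number stands for, whether the replicates were separate plants or pools, or at what hour plants were collected. The p-values therefore measure only the spread between these samples, which may be technical. If same-numbered libraries share a source, these p-values do not measure the spread between such sources. In messenger RNA from whole aerial organs, fewer cells of a type and less RNA per cell cannot be told apart.

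The plant circadian clock is a set of transcription factors that repress each other in turn through the day. CCA1 and LHY, MYB-related factors that peak around dawn, bind the evening element in the promoters of genes such as TOC1 and GI and repress them. The PRR proteins and the evening complex of ELF3, ELF4 and LUX repress in the other part of the cycle, and FKF1 and GI act in day-length sensing. Leaf carbon status also cycles: starch made in the light is broken down at night, and when sugar runs short plants raise genes of amino acid breakdown and autophagy. Auxin synthesis and response genes are in turn gated by the clock and by the PIF factors, which act most in the dark and in shade.

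Some single libraries stood apart, and none was removed for it. cuc2-3 1 stood apart from the other 5 libraries of numbers 1 and 2 in evening clock genes, for some of which values without it are also given. WT 1 held 31 counts of STM and 24 of KNAT1, shoot meristem genes, where the other 8 libraries held 312 to 771 and 189 to 372. cuc2-3 3 had the lowest share of mapped reads, 92.2% against 95.4% to 96.6% in the other 8, and the largest shares of plastid and mitochondrial counts, 0.398% and 0.0223%. Total counts ran from 22934969 to 27734410 in replicate 3, against 17361433 to 24442714 in replicates 1 and 2. Genes with at least 1 count numbered 26411 to 28528 in replicate 3, against 24993 to 26384 in replicates 1 and 2. Thinned to the smallest total, the expected numbers were 25570 to 27164 in replicate 3, against 24885 to 25548 in replicates 1 and 2. CUC2 (AT5G53950), the gene named in the line labels, had 2.33, 0.817 and 43.5 normalised CPM in WT 3, cuc2-3 3 and CUC2gm-4 3, against 0.811 and 2.96 in WT 1 and WT 2, 1.75 and 0.621 in cuc2-3 1 and cuc2-3 2, and 31.3 and 32.7 in CUC2gm-4 1 and CUC2gm-4 2, and its log2 fold change with replicate number was 0.18 (SE 0.33, edgeR adjusted p = 0.807). The high level in CUC2gm-4 goes against the description of both mutants as knock-outs, so that line is named here only as labelled.

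Replicate 3 differed from replicates 1 and 2 in 594 of 18291 genes tested, 3.25% of them. Of these 377 were higher in replicate 3 (2.06%) and 217 lower (1.19%), by the quasi-likelihood test of edgeR, adjusted over all genes by Benjamini-Hochberg at a threshold of 0.05; its values are called edgeR adjusted p. The median size of their log2 fold change was 1.05, and 213 higher and 100 lower genes changed by at least 1 on the log2 scale. The direction was the same within all 3 genotypes for 593 of the 594, and 584 lay beyond both other libraries of the genotype in all 3, where 11.6% and 8.98% of all genes tested did so upward and downward. Calling on these same libraries itself favours a shared direction, so the 593 and 584 are descriptions. DESeq2 called 651 higher and 716 lower, all 594 among them, so that the share of higher genes among the calls depended on the tool.

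Fewer genes passed between numbers 1 and 2. In the fit with all 9 libraries 0 genes passed between them in edgeR, with 2437 at an unadjusted p below 0.05 and 358 passing in DESeq2. Over fits of 6 libraries each, 8 of 17949 genes passed between numbers 1 and 2 (0.0446%), against 645 of 18004 between numbers 3 and 1 (3.58%, with 2.03% higher) and 611 of 18121 between numbers 3 and 2 (3.37%, with 1.68% higher). The last 2 counts share the number 3 libraries. With the replicate number as a 3-level factor (a replicate block) the contrast of number 3 with the mean of the others called 618 genes higher (3.38%) and 409 lower, all 594 among them.

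**Figure D1:**
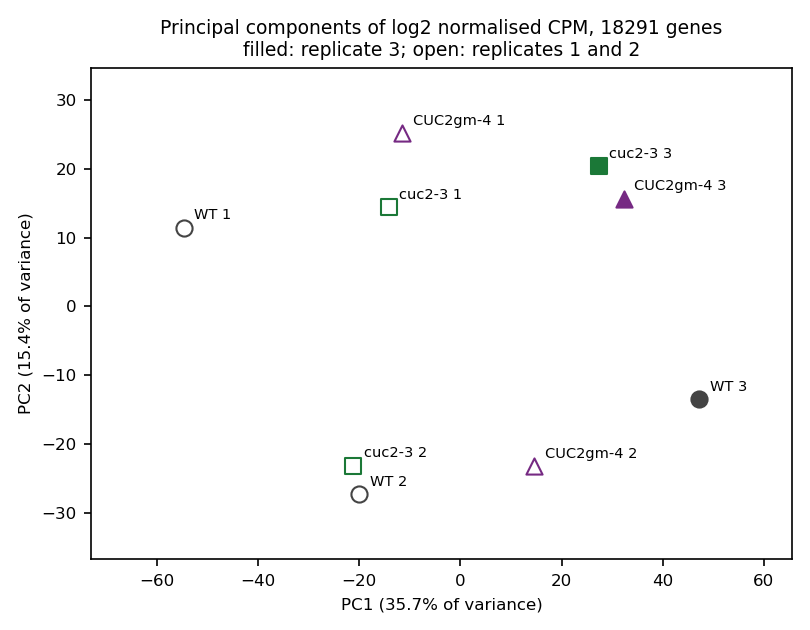
First and second principal components (35.7% and 15.4% of the variance) of log2 normalised CPM over 18291 genes, 1 point per library, filled for replicate 3 and open for replicates 1 and 2, with the shape and colour giving the genotype. The 3 filled points have the 3 highest values on the first component, 27.3 to 47.2, against -54.7 to 14.6 for the open points.

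The count depended on single libraries and gave 225 higher genes without WT 1. Without WT 3 the test called 30 genes higher and 8 lower, without cuc2-3 3 it called 66 and 12, and without WT 2 it called 162 and 82, whereas without CUC2gm-4 3 it called 344 and 196. Without cuc2-3 1 it called 298 and 220, of which 432 were among the 594. None of the 106 called genes among those chosen for naming turned its sign in any of 22 alternative settings. These genes were chosen by the same contrast in the same libraries, so a kept sign was likely from the start. The 10 genes called in all 22 were DIN1, DIN6, BAM9, ELIP1, MAKR6, OXS3, AT4G36850, AT5G22920, AT1G07050 and AT5G23240.

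Evening clock genes fell in replicate 3 in 5 of 11 tested cases, and 0 rose. Over all genes tested 1.19% fell and 2.06% rose. The evening list's median log2 fold change was -0.92 against 0.01 over all genes tested. FKF1 (AT1G68050, chr1:25508639-25510907, plus strand of TAIR10.1), the blue-light receptor F-box protein that degrades repressors of flowering, had 12.9, 5.26 and 4.55 normalised CPM in WT 3, cuc2-3 3 and CUC2gm-4 3, against 80.6 and 62.0 in WT 1 and WT 2, 15.9 and 75.0 in cuc2-3 1 and cuc2-3 2, and 56.5 and 63.1 in CUC2gm-4 1 and CUC2gm-4 2. All 3 libraries of replicate 3 lay below the other 6, as they did for 4.22% of all genes tested (6.06% lay above), and cuc2-3 1 was the lowest of the 6, close to WT 3. The log2 fold change of FKF1 was -3.05 (SE 0.45, edgeR adjusted p = 0.00882), and it was -3.25 without cuc2-3 1. ELF4 (AT2G40080, chr2:16734294-16734953, minus strand), a subunit of the evening complex, had 1.78, 0.889 and 0.778 normalised CPM in WT 3, cuc2-3 3 and CUC2gm-4 3, against 12.3 and 10.5 in WT 1 and WT 2, 2.85 and 13.4 in cuc2-3 1 and cuc2-3 2, and 8.60 and 9.17 in CUC2gm-4 1 and CUC2gm-4 2. Its groups did not overlap either, again with cuc2-3 1 nearest to replicate 3, and its log2 fold change was -3.08 (SE 0.45, edgeR adjusted p = 0.0088).

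TOC1 (AT5G61380, chr5:24674963-24678550, plus strand), the pseudo-response regulator that represses CCA1 and LHY, had 32.5, 26.9 and 30.2 normalised CPM in WT 3, cuc2-3 3 and CUC2gm-4 3, against 59.8 and 55.0 in WT 1 and WT 2, 33.3 and 64.6 in cuc2-3 1 and cuc2-3 2, and 66.5 and 62.1 in CUC2gm-4 1 and CUC2gm-4 2. The groups did not overlap, though cuc2-3 1 lay within 1 CPM of WT 3, and the log2 fold change of TOC1 was -0.92 (SE 0.19, edgeR adjusted p = 0.0282). PRR3 (AT5G60100), which stabilises TOC1, had 6.98, 5.30 and 3.69 normalised CPM in replicate 3, against 6.93 to 19.1 with a median of 15.9 in replicates 1 and 2; from here on the 3 values of replicate 3 stand in the order WT, cuc2-3, CUC2gm-4. cuc2-3 1, at 6.93, was just below WT 3, so the groups overlapped by that library. The log2 fold change was -1.50 (SE 0.28, edgeR adjusted p = 0.0197). GI (AT1G22770), a scaffold protein that works with FKF1 and ZTL, had 55.7, 68.8 and 65.1 normalised CPM in replicate 3, against 87.9 to 188 with a median of 134 in replicates 1 and 2, with no overlap. Its log2 fold change was -1.13 (SE 0.25, edgeR adjusted p = 0.0342).

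The other evening genes did not pass. LUX (AT3G46640), the DNA-binding subunit of the evening complex, had a log2 fold change of -0.93 (SE 0.30, edgeR adjusted p = 0.12), and it passed without cuc2-3 1 (-1.09, edgeR adjusted p = 0.0265). Over all alternatives its adjusted p ran from 0.000463 to 0.378. ELF3 (-0.35), CHE (-0.49) and BOA (-0.60) had negative values, while the F-box proteins ZTL (-0.14) and LKP2 (0.01), relatives of FKF1, were near 0. Without cuc2-3 1 the list had 6 lower genes. The count was 0 without cuc2-3 3, 1 without WT 3, 2 without WT 2 or CUC2gm-4 3 and 3 without CUC2gm-4 1.

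Of 15 morning clock genes 5 rose and 1 fell, where 2.06% of all genes tested rose and 1.19% fell. The list's median log2 fold change was 0.66. LHY (AT1G01060, chr1:33365-37871, minus strand) had 2.24, 3.98 and 7.21 normalised CPM in WT 3, cuc2-3 3 and CUC2gm-4 3, against 0.374 and 1.06 in WT 1 and WT 2, 0.964 and 0.508 in cuc2-3 1 and cuc2-3 2, and 0.442 and 1.40 in CUC2gm-4 1 and CUC2gm-4 2. The groups did not overlap, and CUC2gm-4 3 was highest. The log2 fold change of LHY was 2.40 (SE 0.40, edgeR adjusted p = 0.0122). CCA1 (AT2G46830, chr2:19245591-19248915, plus strand), its close partner, had 3.64, 8.92 and 11.2 normalised CPM in WT 3, cuc2-3 3 and CUC2gm-4 3, against 2.68 and 2.12 in WT 1 and WT 2, 4.91 and 2.14 in cuc2-3 1 and cuc2-3 2, and 2.01 and 1.69 in CUC2gm-4 1 and CUC2gm-4 2. Here WT 3 lay below cuc2-3 1, so the groups overlapped, and the log2 fold change was 1.58 (SE 0.34, edgeR adjusted p = 0.0344). Without CUC2gm-4 3 the log2 fold change of CCA1 was 0.996 (edgeR adjusted p = 0.158), and it did not pass without WT 3 or without cuc2-3 3 either.

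LNK4 (AT5G06980), of the family of LNK coactivators that work with the REVEILLE factors, had 36.6, 27.8 and 30.6 normalised CPM in replicate 3, against 5.93 to 18.4 with a median of 10.4 in replicates 1 and 2, with no overlap and a log2 fold change of 1.63 (SE 0.24, edgeR adjusted p = 0.00941). RVE4 (AT5G02840) and RVE1 (AT5G17300), MYB-like relatives of CCA1, changed by 0.66 (SE 0.15, edgeR adjusted p = 0.0354) and 1.48 (SE 0.34, edgeR adjusted p = 0.042). Both were higher in replicate 3 than in the other 6 libraries. RVE8 (1.1), LNK2 (0.83) and LNK3 (1.03) did not pass, with edgeR adjusted p of 0.0707, 0.0906 and 0.068, and passed with the replicate block (0.0495, 0.00702 and 0.00917). The list then held 8 higher genes.

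PRR5 (AT5G24470, chr5:8356204-8358546, minus strand), a repressor of CCA1 and LHY that acts later in the day than PRR9 and PRR7, was the member that fell. It had 54.3, 23.8 and 29.1 normalised CPM in WT 3, cuc2-3 3 and CUC2gm-4 3, against 125 and 94.3 in WT 1 and WT 2, 54.7 and 99.2 in cuc2-3 1 and cuc2-3 2, and 82.6 and 68.6 in CUC2gm-4 1 and CUC2gm-4 2. All 3 libraries of replicate 3 were below the other 6, with cuc2-3 1 nearest to them, and the log2 fold change was -1.35 (SE 0.22, edgeR adjusted p = 0.0113). PRR7 (0.03) and PRR9 (0.27), the earlier repressors, did not pass. PRR9, PRR7, LNK1, RVE7 and AT5G52660 were all highest in cuc2-3 1; PRR9 stood there at 8.68 normalised CPM, against 2.33 to 4.55 in replicate 3. LNK1 (0.01), RVE7 (0.04), RVE2 (-0.01) and AT5G52660 (0.05) had values near 0. The count of morning genes that rose was 0 without WT 3, 1 without cuc2-3 3 or CUC2gm-4 3, 2 without WT 2, cuc2-3 2 or CUC2gm-4 1, 3 without WT 1 or CUC2gm-4 2 and 6 without cuc2-3 1.

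Of 15 clock output genes 2 rose and 2 fell, where 2.06% of all genes tested rose and 1.19% fell. GRP7 (AT2G21660) and GRP8 (AT4G39260), RNA-binding proteins whose transcripts peak in the evening, fell. GRP7 had 1179, 819 and 646 normalised CPM in WT 3, cuc2-3 3 and CUC2gm-4 3, against 2897 and 2669.7 in WT 1 and WT 2, 1122 and 2542 in cuc2-3 1 and cuc2-3 2, and 2727 and 2735 in CUC2gm-4 1 and CUC2gm-4 2, and its log2 fold change was -1.47 (SE 0.27, edgeR adjusted p = 0.017). cuc2-3 1 lay below WT 3, so the groups overlapped by it, and without it the log2 fold change of GRP7 was -1.64. GRP8 changed by -1.34 (SE 0.22, edgeR adjusted p = 0.0118) with no overlap. CDF2 (AT5G39660), a cycling DOF factor that represses CO and FT by day, rose by 1.14 (SE 0.25, edgeR adjusted p = 0.0378). The DOF-type gene AT1G69570 had 7.24, 7.50 and 6.51 normalised CPM in replicate 3, against 0.686 to 2.54 with a median of 1.41 in replicates 1 and 2, a change of 2.29 (SE 0.27, edgeR adjusted p = 0.00375). COR27 (-2.39) and AT4G33980 (-2.79) did not pass, with edgeR adjusted p of 0.09 and 0.0507, but fell with the replicate block (0.0373 and 0.02), so that 4 output genes fell in that fit and also 4 without cuc2-3 1. CO, the flowering regulator of long days, was at -0.08.

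**Figure D2:**
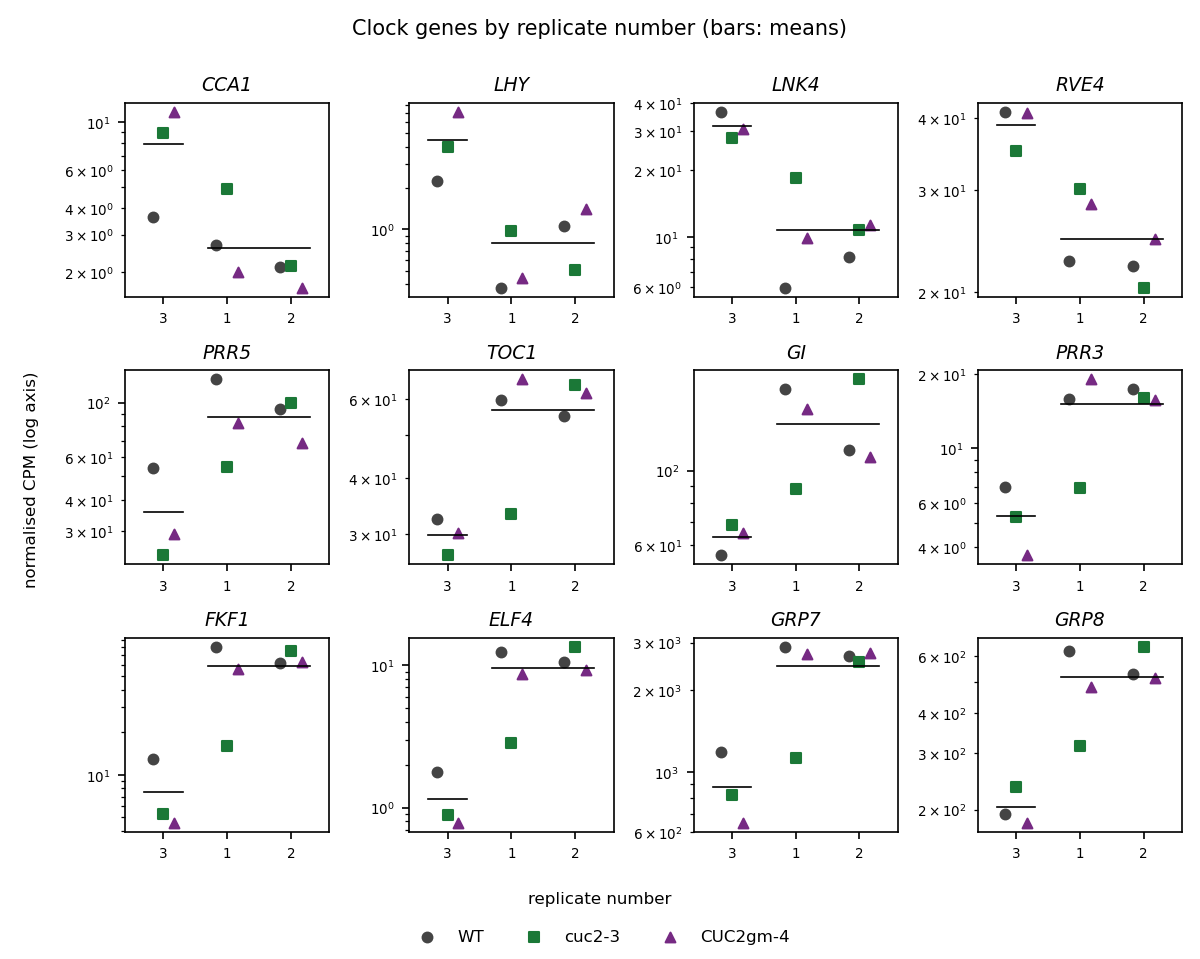
Normalised CPM (log axis) of 12 clock and clock output genes in each library, grouped by replicate number on the horizontal axis, with number 3 at the left of each panel; shape and colour give the genotype and bars the means of replicate 3 and of replicates 1 and 2. CCA1, LHY, LNK4 and RVE4 have higher means in replicate 3, the other 8 lower means, and in PRR5, TOC1, PRR3, FKF1, ELF4 and GRP7 the square of cuc2-3 1 sits below the other points of numbers 1 and 2.

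Promoter letters were read for several motifs, of which 2, of clock and light control, come first. The window was the 500 bases before the annotated gene start in the RefSeq TAIR10.1 assembly, and both strands were read. The evening element AAAATATCT lay in the window of 37 of 216 lower genes (17.1%), 19 of 371 higher genes (5.12%) and 824 of all 18180 tested genes with a window (4.53%). The G-box CACGTG, the core site of bHLH and bZIP factors such as the PIFs, lay in 79 of 371 higher genes (21.3%), 20 of 216 lower genes (9.26%) and 1871 of all 18180 (10.3%). These shares are descriptions with no test, and a match is not a shown binding site. The following stretches are printed because their genes carry the clock result, each 5′ to 3′ on the gene's own strand, with the evening element or its reverse complement in capitals for FKF1, TOC1, PRR5 and GRP7 and the G-box in capitals for LHY and CCA1. The match nearest to the gene start whose stretch touches no annotated exon is marked; the 500 bases held 2 evening elements in FKF1, 1 in TOC1, 2 in PRR5 and 3 in GRP7, and a second one stands unmarked in the stretch of GRP7.
FKF1 (chr1:25508427-25508487, gene on the plus strand): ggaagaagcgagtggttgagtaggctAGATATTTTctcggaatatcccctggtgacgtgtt
TOC1 (chr5:24674786-24674846, gene on the plus strand): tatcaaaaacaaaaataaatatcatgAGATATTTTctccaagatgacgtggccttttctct
PRR5 (chr5:8358699-8358759, gene on the minus strand): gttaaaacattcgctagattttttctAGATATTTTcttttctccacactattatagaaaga
GRP7 (chr2:9266558-9266614, gene on the minus strand): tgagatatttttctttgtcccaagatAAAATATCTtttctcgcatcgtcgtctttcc
LHY (chr1:37920-37977, gene on the minus strand): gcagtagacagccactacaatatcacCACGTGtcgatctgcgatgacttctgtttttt
CCA1 (chr2:19245372-19245429, gene on the plus strand): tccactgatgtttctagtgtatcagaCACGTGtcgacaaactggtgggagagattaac

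All of the first 4 genes fell in replicate 3 and both of the last rose. They were picked for the clock result, and other named genes with these motifs went otherwise. AT3G15450, AT5G22920, IAA1 and BBX28 held the evening element and rose, and RVE7, LUX and BOA held it and did not pass. CBF2, FER3 and AT1G11210 held a G-box and fell, and PRR7, PRR9 and RVE2 held it and did not pass. Among the 5 evening clock genes that fell, FKF1 and TOC1 held the evening element in this window, while ELF4, GI and PRR3 had no match there. Of the 15 morning clock genes 7 held a G-box and 2 the evening element. The CCA1-binding site AAAAATCT, read in the same way and able to overlap an evening element only in part, was in 12.5% of lower genes, 15.9% of higher genes and 12.5% of all tested.

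DIN1 and DIN6, named for induction in the dark, were among the genes with the largest rise. DIN1 (AT4G35770, chr4:16944878-16946266, plus strand), a rhodanese-like protein of senescing and darkened leaves, had 200.1, 39.8 and 40.1 normalised CPM in WT 3, cuc2-3 3 and CUC2gm-4 3, against 9.55 and 3.24 in WT 1 and WT 2, 4.32 and 4.57 in cuc2-3 1 and cuc2-3 2, and 8.12 and 4.14 in CUC2gm-4 1 and CUC2gm-4 2. WT 3 was far above every other library, but cuc2-3 3 and CUC2gm-4 3 also lay above all 6 of numbers 1 and 2. The log2 fold change of DIN1 was 3.70 (SE 0.41, edgeR adjusted p = 0.00345), and within genotypes it was 4.98 in WT, 3.16 in cuc2-3 and 2.70 in CUC2gm-4. DIN6 (AT3G47340, chr3:17437840-17441431, minus strand), the asparagine synthetase raised in the dark, had 247, 107 and 97.8 normalised CPM in WT 3, cuc2-3 3 and CUC2gm-4 3, against 26.6 and 11.3 in WT 1 and WT 2, 16.3 and 18.9 in cuc2-3 1 and cuc2-3 2, and 36.2 and 25.0 in CUC2gm-4 1 and CUC2gm-4 2 and a log2 fold change of 2.73 (SE 0.33, edgeR adjusted p = 0.00381). WT 3 was again highest, with no overlap between the groups.

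The sugar-shortage list had 10 of 15 tested members higher and 0 lower, where 2.06% of all genes were higher, with a median log2 fold change of 1.24. BZIP63 (AT5G28770), a transcription factor controlled by the starvation kinase SnRK1, had 122, 75.5 and 66.6 normalised CPM in replicate 3, against 19.7 to 40.0 with a median of 28.6 in replicates 1 and 2, and changed by 1.66 (SE 0.25, edgeR adjusted p = 0.00941). MCCA (AT1G03090), a subunit of methylcrotonyl-CoA carboxylase in leucine breakdown, and TPS9 (AT1G23870), a trehalose phosphate synthase family member, changed by 1.57 (SE 0.28, edgeR adjusted p = 0.0149) and 1.15 (SE 0.21, edgeR adjusted p = 0.0184). AT1G21400, which encodes a thiamine diphosphate-binding protein, changed by 1.55 (SE 0.28, edgeR adjusted p = 0.0149). Without WT 3 the log2 fold change was 1.11 for BZIP63, which passed, and 0.97 for AT1G21400, which did not. EXO (-1.19), a gene of brassinosteroid and carbon response, had the 1 negative value and did not pass. Within genotypes the list's median was 1.84 in WT, 1.17 in cuc2-3 and 0.63 in CUC2gm-4. The list count was 3 without WT 3 or cuc2-3 3 and 9 to 11 without any other single library.

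Amino acid breakdown genes, a list drawn up after the values were seen, rose in 5 of 15 cases and fell in 0. The shares over all genes tested were 2.06% and 1.19%. ERD5 (AT3G30775, chr3:12448636-12451556, minus strand), the proline dehydrogenase of mitochondria, had 1322, 404 and 472 normalised CPM in WT 3, cuc2-3 3 and CUC2gm-4 3, against 108 and 31.8 in WT 1 and WT 2, 37.0 and 145 in cuc2-3 1 and cuc2-3 2, and 82.9 and 145 in CUC2gm-4 1 and CUC2gm-4 2. The groups did not overlap, and the log2 fold change of ERD5 was 2.91 (SE 0.53, edgeR adjusted p = 0.0164). MGL (AT1G64660), methionine gamma-lyase, had 49.2, 43.5 and 46.7 normalised CPM in replicate 3, against 17.7 to 22.7 with a median of 21.3 in replicates 1 and 2, and a log2 fold change of 1.18 (SE 0.13, edgeR adjusted p = 0.00345). Within genotypes it was 1.29 in WT, 1.03 in cuc2-3 and 1.2 in CUC2gm-4. The glutamate dehydrogenases GDH2 (AT5G07440) and GDH1 (AT5G18170) changed by 1.29 (SE 0.27, edgeR adjusted p = 0.0285) and 0.90 (SE 0.19, edgeR adjusted p = 0.0304), and GDH2 was 333 normalised CPM in WT 3 but 109 and 116 in cuc2-3 3 and CUC2gm-4 3. DIN3 (AT3G06850), a branched-chain ketoacid dehydrogenase subunit, was the fifth, at 0.72 (SE 0.16, edgeR adjusted p = 0.0378). Without WT 3 the log2 fold changes of GDH2, GDH1 and DIN3 were 0.66, 0.56 and 0.47, and none passed. The list count was 1 without WT 3 or cuc2-3 3, 2 without WT 2, 3 without WT 1, cuc2-3 1 or CUC2gm-4 1 and 8 with the replicate block. Against replicate 2 alone it was 1, and against replicate 1 alone it was 5.

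Of the 9 ATG8 genes, which encode the ubiquitin-like proteins that coat the autophagosome, 3 rose and 0 fell, where 2.06% and 1.19% of all genes tested did. All 9 log2 fold changes were above 0, with a median of 0.63. ATG8E (AT2G45170) had 36.4, 30.9 and 31.2 normalised CPM in replicate 3, against 9.92 to 17.2 with a median of 11.5 in replicates 1 and 2, a change of 1.43 (SE 0.16, edgeR adjusted p = 0.00345). ATG8C and ATG8F changed by 1.08 (SE 0.19, edgeR adjusted p = 0.0141) and 0.80 (SE 0.17, edgeR adjusted p = 0.0344). The groups did not overlap for any of these 3. Over all genes tested 6.06% had all of replicate 3 above the other 6 libraries. The count was 1 without WT 3 or cuc2-3 3. This list too was drawn up after the values were seen.

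Of 26 starch genes 2 rose and 2 fell, where 2.06% of all genes tested rose and 1.19% fell. BAM9 (AT5G18670, chr5:6225956-6228195, plus strand), a beta-amylase-like protein of the plastid with no catalytic activity of its own, had 192, 86.5 and 110.2 normalised CPM in WT 3, cuc2-3 3 and CUC2gm-4 3, against 15.6 and 12.3 in WT 1 and WT 2, 27.0 and 16 in cuc2-3 1 and cuc2-3 2, and 31.7 and 24.1 in CUC2gm-4 1 and CUC2gm-4 2. Each replicate 3 library was above all other 6, and the log2 fold change was 2.65 (SE 0.31, edgeR adjusted p = 0.00345). GBSS1 (AT1G32900), granule-bound starch synthase and itself a clock-controlled gene, rose by 0.86 (SE 0.14, edgeR adjusted p = 0.0118). BAM3 (AT4G17090), the main beta-amylase of night-time starch breakdown, and PHS2 (AT3G46970), the cytosolic glucan phosphorylase, fell and changed by -0.98 (SE 0.17, edgeR adjusted p = 0.0136) and -1.16 (SE 0.22, edgeR adjusted p = 0.0184). Of the 26 log2 fold changes 22 were below 0, and their median was -0.24. Without cuc2-3 1 the count of genes that fell was 6, and it was 0 without WT 3 or cuc2-3 3 and 4 with the replicate block; the count that rose was 1 without WT 3 or CUC2gm-4 3.

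Of 20 light-harvesting genes 0 passed in edgeR, with a median log2 fold change of -0.10; with the replicate block 1 rose. Of 15 Calvin cycle genes 1 fell, CP12-2 (AT3G62410), the small protein that holds phosphoribulokinase inactive in the dark, with a log2 fold change of -0.69 (SE 0.16, edgeR adjusted p = 0.0432). With the replicate block 2 fell. The Calvin cycle list's median was -0.35 and 14 of its 15 values were negative. In the main fit 1.19% of all genes tested fell and 2.06% rose.

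Of 14 auxin synthesis and response genes 10 rose in replicate 3 and 0 fell, where 2.06% and 1.19% of all genes tested did. The list's median log2 fold change was 1.52. IAA29 (AT4G32280, chr4:15583332-15584903, plus strand), an Aux/IAA repressor that PIF factors induce, had 27.9, 14.9 and 8.76 normalised CPM in WT 3, cuc2-3 3 and CUC2gm-4 3, against 1.93 and 2.12 in WT 1 and WT 2, 1.42 and 0.677 in cuc2-3 1 and cuc2-3 2, and 3.18 and 2.04 in CUC2gm-4 1 and CUC2gm-4 2. The groups did not overlap, and its log2 fold change was 3.15 (SE 0.35, edgeR adjusted p = 0.00345). YUC9 (AT1G04180) and YUC8 (AT4G28720), flavin monooxygenases of auxin synthesis, were scarce. YUC9 had 5.76, 8.39 and 3.89 normalised CPM in WT 3, cuc2-3 3 and CUC2gm-4 3, against 0.499 and 0.279 in WT 1 and WT 2, 0.230 and 0.0564 in cuc2-3 1 and cuc2-3 2, and 1.29 and 1.55 in CUC2gm-4 1 and CUC2gm-4 2, where cuc2-3 2 held 1 count. The groups did not overlap, and its log2 fold change was 3.56 (SE 0.57, edgeR adjusted p = 0.0113). YUC8 had 4.02, 4.73 and 4.79 normalised CPM in replicate 3, against 0.395 to 1.81 with a median of 1.19 in replicates 1 and 2, and changed by 2.08 (SE 0.32, edgeR adjusted p = 0.0105).

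IAA2 (AT3G23030), IAA5 (AT1G15580), 2 further Aux/IAA repressors, and GH3.5 (AT4G27260), an enzyme that conjugates auxin to amino acids, changed by 1.44 (SE 0.18, edgeR adjusted p = 0.00381), 2.38 (SE 0.44, edgeR adjusted p = 0.0176) and 1.61 (SE 0.27, edgeR adjusted p = 0.0116). The auxin carrier PIN3 (0.56) did not pass. In the whole Aux/IAA family, which shares 5 called members with the list above, 8 of 19 tested genes rose and 0 fell. The shares over all genes tested were 2.06% and 1.19%. IAA16 (AT3G04730) had 163, 159 and 164 normalised CPM in replicate 3, against 82.8 to 121 with a median of 95.5 in replicates 1 and 2, and a log2 fold change of 0.71 (SE 0.13, edgeR adjusted p = 0.0178).

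SAUR genes, small auxin-raised transcripts whose proteins promote cell expansion, rose in 15 of 44 tested cases and fell in 0. The shares over all genes tested were 2.06% and 1.19%. SAUR22 (AT5G18050) had 22.4, 15.8 and 9.58 normalised CPM in replicate 3, against 1.24 to 4.78 with a median of 3.15 in replicates 1 and 2, and changed by 2.31 (SE 0.34, edgeR adjusted p = 0.00933). SAUR23 (AT5G18060), its neighbour on chromosome 5, had 9.02, 8.03 and 8.35 normalised CPM in replicate 3, against 1.02 to 3.63 with a median of 2.42 in replicates 1 and 2, and changed by 1.82 (SE 0.30, edgeR adjusted p = 0.0114). These genes are near-identical copies, and reads that matched several copies equally well were removed, so their levels are uncertain. Without WT 3, and likewise without cuc2-3 3, 0 SAUR genes passed in edgeR; 9 rose without WT 2 and 19 without cuc2-3 1. With the replicate block 22 rose and 2 fell, and 2 also fell in DESeq2, with no filter on low counts and without CUC2gm-4 1. The auxin list had 1 higher gene without WT 3, 3 without cuc2-3 3, 6 without WT 2 and 10 without cuc2-3 1. The Aux/IAA and SAUR lists were drawn up after the values were seen.

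Of 18 light signalling genes 5 rose and 0 fell, where 2.06% of all genes tested rose and 1.19% fell. HB-2 (AT4G16780), a homeodomain-leucine zipper factor raised by shade, had 101, 138 and 88.2 normalised CPM in WT 3, cuc2-3 3 and CUC2gm-4 3, against 33.2 and 32.2 in WT 1 and WT 2, 27.7 and 33.4 in cuc2-3 1 and cuc2-3 2, and 37.7 and 49.7 in CUC2gm-4 1 and CUC2gm-4 2, with no overlap and a log2 fold change of 1.63 (SE 0.19, edgeR adjusted p = 0.00345). PIL1 (AT2G46970), a bHLH factor and classical shade marker, had 18.6, 17.6 and 13.9 normalised CPM in replicate 3, against 2.93 to 8.87 with a median of 5.46 in replicates 1 and 2, and changed by 1.62 (SE 0.26, edgeR adjusted p = 0.0113). PHYA (AT1G09570), the far-red light receptor whose transcript is high in the dark, rose by 0.71 (SE 0.14, edgeR adjusted p = 0.0225). ELIP1 (AT3G22840), an early light-induced protein that protects from excess light, also rose, with 11.9, 19.9 and 15.5 normalised CPM in replicate 3, against 2.14 to 6.05 with a median of 3.91 in replicates 1 and 2, and a log2 fold change of 1.97 (SE 0.25, edgeR adjusted p = 0.00382). HFR1 (AT1G02340), an inhibitor of PIFs, was scarce and changed by 2.31 (SE 0.48, edgeR adjusted p = 0.0287).

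The median log2 fold change of the 18 was 0.10. With the replicate block 7 rose and 1 fell, PIF7. The count that fell was also 1 in DESeq2, in voom, with DESeq2 size factors, with library totals and with no filter on low counts. It was 1 again with nuclear genes alone and without the genotype block, and 0 without WT 3 or cuc2-3 3. PIF4 (0.06), PIF5 (0.00), PIF3 (-0.09) and HY5 (0.22) did not pass. In a list of shade targets drawn up after the values were seen, 6 of 10 rose, where 2.06% of all genes tested did. PKS4 (AT5G04190), a phytochrome kinase substrate of growth orientation, had 7.58, 4.16 and 3.28 normalised CPM in replicate 3, against 0.508 to 0.997 with a median of 0.692 in replicates 1 and 2, and changed by 2.74 (SE 0.28, edgeR adjusted p = 0.00345). HAT2 (AT5G47370), of the same family as HB-2, had 94.3, 55.8 and 33.3 normalised CPM in replicate 3, against 12.4 to 18.4 with a median of 15.4 in replicates 1 and 2, and changed by 1.95 (SE 0.24, edgeR adjusted p = 0.00382), and XTR7 (AT4G14130), a cell wall enzyme, by 1.98 (SE 0.35, edgeR adjusted p = 0.0157). HAT3, HB4 and BBX28 were the others that rose. Light signalling and shade counts were 2 and 3 without WT 3, and again 2 and 3 without cuc2-3 3, and the light signalling count was 3 without WT 2.

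**Figure D3:**
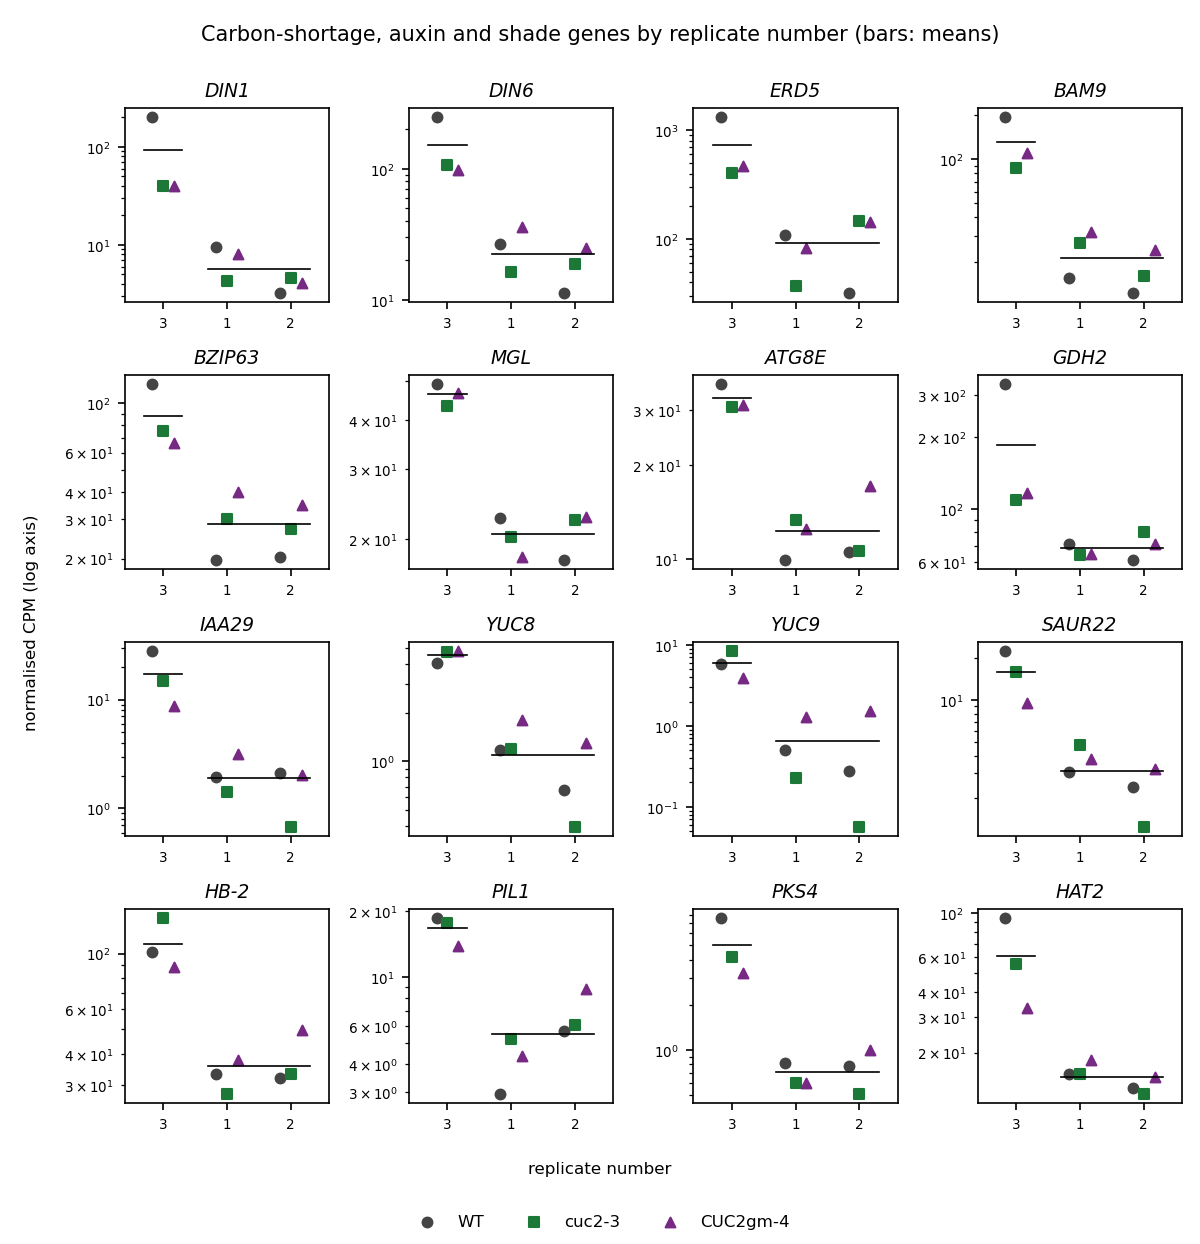
Normalised CPM (log axis) of 8 carbon-shortage genes (upper rows) and 8 auxin and shade genes (lower rows) in each library by replicate number, with number 3 at the left; shape and colour give the genotype and bars the means of replicate 3 and of replicates 1 and 2. All 16 genes lie higher in the 3 replicate 3 libraries than in the other 6, as do 6.06% of all genes tested. They were picked among called genes. WT 3 is highest in DIN1, DIN6, ERD5, BAM9, BZIP63, MGL, ATG8E, GDH2, IAA29, SAUR22, PIL1, PKS4 and HAT2.

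AT1G07050 (chr1:2163575-2165261, minus strand), a protein with the CCT domain of CO and TOC1, had 3.64, 1.28 and 0.819 normalised CPM in WT 3, cuc2-3 3 and CUC2gm-4 3, against 26.5 and 30.8 in WT 1 and WT 2, 7.35 and 19.8 in cuc2-3 1 and cuc2-3 2, and 24.4 and 35.6 in CUC2gm-4 1 and CUC2gm-4 2. All of replicate 3 lay below the others, of which cuc2-3 1 was lowest, and the log2 fold change of -3.69 (SE 0.44, edgeR adjusted p = 0.00375) was the largest fall among the genes chosen for naming. AT5G23240, a DNAJ-type chaperone, had 6.73, 3.13 and 1.56 normalised CPM in replicate 3, against 10.7 to 34.1 with a median of 21.9 in replicates 1 and 2, and changed by -2.72 (SE 0.37, edgeR adjusted p = 0.00641). CYP706A6 (AT4G12320), a cytochrome P450, had 2.12, 2.2 and 2.62 normalised CPM in WT 3, cuc2-3 3 and CUC2gm-4 3, against 27.7 and 16.6 in WT 1 and WT 2, 21.4 and 15.4 in cuc2-3 1 and cuc2-3 2, and 10.4 and 5.83 in CUC2gm-4 1 and CUC2gm-4 2. Its log2 fold change was -2.66 (SE 0.36, edgeR adjusted p = 0.00632). AIF1 (AT3G05800), a helix-loop-helix protein that limits growth, had 9.57, 6.36 and 5.37 normalised CPM in replicate 3, against 16.9 to 42.4 with a median of 35.0 in replicates 1 and 2, and changed by -2.16 (SE 0.26, edgeR adjusted p = 0.00381). Within genotypes the log2 fold change of AIF1 was -2.10 in WT, -2.16 in cuc2-3 and -2.22 in CUC2gm-4. GPAT3 (AT4G01950), a glycerol-3-phosphate acyltransferase, and LSU2 (AT5G24660), a gene raised by low sulfur, changed by -1.97 (SE 0.34, edgeR adjusted p = 0.0144) and -1.76 (SE 0.35, edgeR adjusted p = 0.0233).

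Among the largest rises not yet described, AT4G36850, a PQ-loop membrane protein, had 71.7, 32.3 and 64.2 normalised CPM in replicate 3, against 2.68 to 10.3 with a median of 6.61 in replicates 1 and 2, and changed by 3.11 (SE 0.31, edgeR adjusted p = 0.00345). GDPD2 (AT5G41080), a glycerophosphodiester phosphodiesterase family member, had 134, 30.6 and 42.3 normalised CPM in replicate 3, against 5.47 to 13.7 with a median of 7.75 in replicates 1 and 2, and changed by 2.79 (SE 0.42, edgeR adjusted p = 0.0102). MAKR6 (AT5G52900), a membrane-associated kinase regulator, and MIOX2 (AT2G19800), a myo-inositol oxygenase of sugar shortage, changed by 2.79 (SE 0.30, edgeR adjusted p = 0.00345) and 2.68 (SE 0.52, edgeR adjusted p = 0.0219). MIOX2 had 53.7, 11.4 and 9.46 normalised CPM in replicate 3, against 1.40 to 5.14 with a median of 3.27 in replicates 1 and 2, and without WT 3 its log2 fold change was 1.62 (edgeR adjusted p = 0.214). WT 3 was the highest library for all 4. AT5G22920, a CHY-type zinc finger protein, and AT3G15450, annotated as aluminum induced, followed. AT5G22920 had 715, 369 and 293 normalised CPM in replicate 3, against 50.7 to 115 with a median of 79.9 in replicates 1 and 2, and changed by 2.49 (SE 0.31, edgeR adjusted p = 0.00381). AT3G15450 had 2547, 1236 and 977 normalised CPM in replicate 3, against 171 to 557 with a median of 321 in replicates 1 and 2, and changed by 2.22 (SE 0.36, edgeR adjusted p = 0.0113). None of these 6 genes overlapped between the groups. Over all genes tested 6.06% had all 3 libraries of replicate 3 above the other 6. The naming rule asks for replicate 3 above both other libraries of each genotype, so this was likely from the start. OXS3 (AT5G56550), a stress tolerance protein, changed by 2.36 (SE 0.31, edgeR adjusted p = 0.00569).

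**Figure D4:**
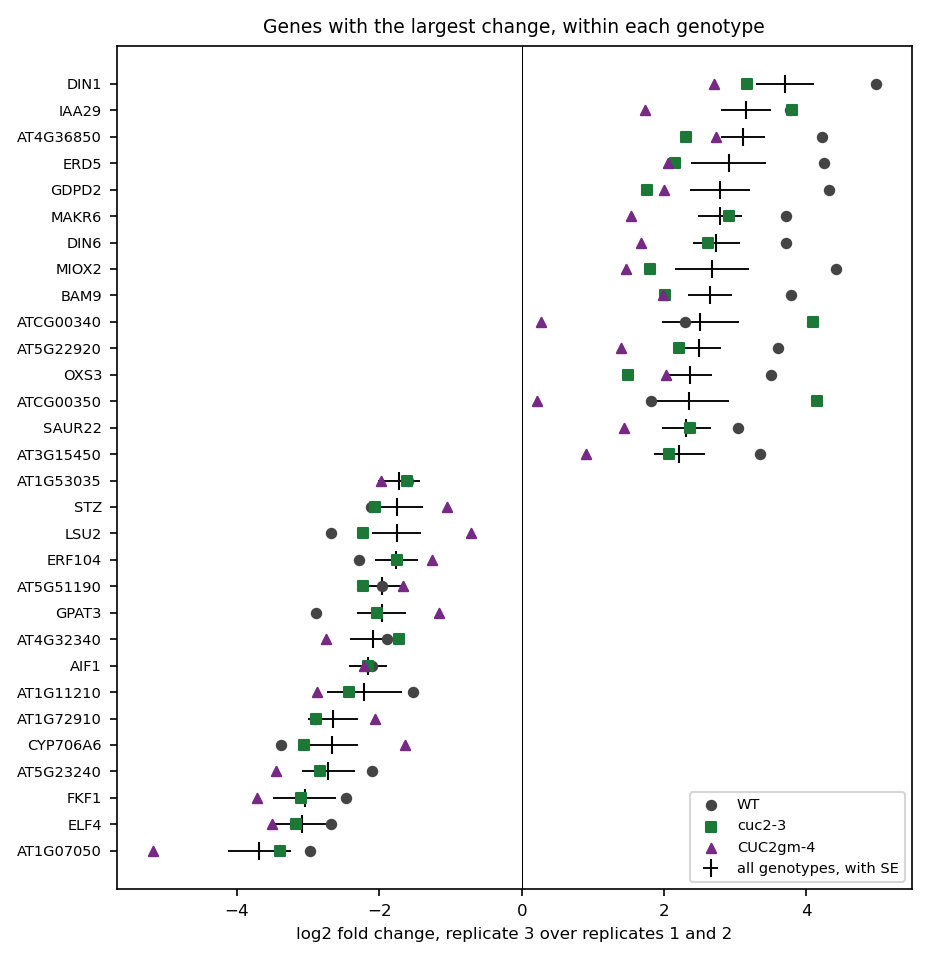
Log2 fold change of replicate 3 over replicates 1 and 2 (horizontal axis) for the 30 genes with the largest change by the naming rule, 15 higher and 15 lower, with the estimate over all genotypes and its SE as a tick and line and the value within each genotype as a point. The naming rule itself fixes that all points share the sign of their gene's estimate. WT lies furthest out for most of the nuclear genes that rose and CUC2gm-4 for AT1G07050, ELF4, FKF1 and AT5G23240.

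The interaction of genotype and replicate 3 passed for 0 of 18291 genes in edgeR, with 448 at an unadjusted p below 0.05, and for 42 in DESeq2. The interaction rests on the spread between numbers 1 and 2 within genotypes alone. The auxin list had medians of 1.94 in WT, 1.49 in cuc2-3 and 0.84 in CUC2gm-4, while the evening clock list had -0.78, -0.86 and -1.09 in the same order. These orders were not tested.

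Of 16 touch response genes 3 fell and 0 rose, where 1.19% of all genes tested fell and 2.06% rose. The list had 14 values below 0 and a median of -0.95. With the replicate block 7 fell, with no filter on low counts 10 did and in DESeq2 5 did. Against replicate 2 alone 11 fell and 0 rose, whereas against replicate 1 alone 3 fell and 1 rose. Without cuc2-3 1 6 fell, without the genotype block 0 did, and without WT 3, and likewise without cuc2-3 3, 0 did. ERF104 (AT5G61600), an ethylene response factor released in early defence, had 16.6, 10.6 and 7.49 normalised CPM in WT 3, cuc2-3 3 and CUC2gm-4 3, against 80.9 and 81.1 in WT 1 and WT 2, 19.0 and 52.0 in cuc2-3 1 and cuc2-3 2, and 15.7 and 20.1 in CUC2gm-4 1 and CUC2gm-4 2. The fall was largest in WT, and the log2 fold change was -1.76 (SE 0.30, edgeR adjusted p = 0.0136). The CUC2gm-4 libraries of numbers 1 and 2 were close to WT 3, so the groups overlapped across genotypes. STZ (AT1G27730), a zinc finger repressor of stress genes, had 12.1, 6.29 and 5.49 normalised CPM in replicate 3, against 8.56 to 57.3 with a median of 27.3 in replicates 1 and 2, and changed by -1.75 (SE 0.36, edgeR adjusted p = 0.0281). CAF1a (AT3G44260), a deadenylase, changed by -1.24 (SE 0.24, edgeR adjusted p = 0.0211).

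In the cold list 4 of 15 genes fell and 1 rose, where 1.19% of all genes tested fell and 2.06% rose. The list's median was -0.55. COR15B (AT2G42530), a chloroplast protein of freezing tolerance, had 55.5, 77.0 and 37.4 normalised CPM in replicate 3, against 87.2 to 233 with a median of 183 in replicates 1 and 2, and changed by -1.57 (SE 0.31, edgeR adjusted p = 0.0243). CBF3 (AT4G25480) and CBF2 (AT4G25470), the neighbouring transcription factors that induce it, changed by -1.65 (SE 0.35, edgeR adjusted p = 0.0322) and -1.10 (SE 0.24, edgeR adjusted p = 0.0315), and RD29A (AT5G52310) by -0.87 (SE 0.20, edgeR adjusted p = 0.0412). The CBF genes are close copies, so their levels carry the limit given for SAUR genes. GOLS1 (AT2G47180), a galactinol synthase, rose by 1.21 (SE 0.22, edgeR adjusted p = 0.0173), by 0.75 without CUC2gm-4 3 (edgeR adjusted p = 0.0473), and did not pass without WT 3 (0.0995). The count of cold genes that fell was 0 without WT 2, WT 3, cuc2-3 3 or CUC2gm-4 3, 1 without WT 1 and 2 without cuc2-3 2.

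Of 19 jasmonate genes 1 rose and 2 fell, where 2.06% of all genes tested rose and 1.19% fell. LOX2 (AT3G45140) and AOC2 (AT3G25770), enzymes of jasmonate synthesis in the plastid, fell and changed by -1.36 (SE 0.28, edgeR adjusted p = 0.0289) and -0.99 (SE 0.23, edgeR adjusted p = 0.0433), and JAZ9 (AT1G70700), a repressor of the response, had 243, 136 and 234 normalised CPM in replicate 3, against 54.7 to 109 with a median of 67.7 in replicates 1 and 2, and rose by 1.50 (SE 0.24, edgeR adjusted p = 0.0113). Of 14 salicylate defence genes 0 passed in edgeR, with a median log2 fold change of -0.78 and 11 negative values; with the replicate block 2 fell, CBP60G and WRKY54, and 1 fell without cuc2-3 1.

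Of 23 cell division genes 0 passed in edgeR, with log2 fold changes from -0.33 to 0.44. In that test 2.06% of all genes rose and 1.19% fell. Among 322 ribosomal protein genes 1 rose and 3 fell, with a median of -0.02: RPL18AA (0.89) rose, and RPSAb (-0.71), AT2G42710 (-0.60) and AT3G58660 (-0.67) fell. Single members passed in the heat (HSFA7A, 1.54), flavonoid (DFR, 0.74), indole glucosinolate (CYP79B3, 1.14), expansin (EXPA4, 0.70), iron (FER3, -0.71) and nitrogen (LBD39, 1.07) lists. Without WT 3 HSFA7A was at 0.98 and LBD39 at 0.59, and neither passed. The senescence, flowering, sulfate assimilation and aliphatic glucosinolate lists had 0 called members in edgeR, and with the replicate block 2 aliphatic glucosinolate genes rose.

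Of 77 plastid-encoded transcripts tested 5 rose and 1 fell, where 2.06% of all genes tested rose and 1.19% fell. Their median log2 fold change was 0.56, and 1 rose and 0 fell without cuc2-3 1. ATCG00490 had 49.4, 859 and 198 normalised CPM in WT 3, cuc2-3 3 and CUC2gm-4 3, against 14.8 and 14.3 in WT 1 and WT 2, 106 and 73.2 in cuc2-3 1 and cuc2-3 2, and 167 and 210.4 in CUC2gm-4 1 and CUC2gm-4 2. cuc2-3 3 held by far the most, CUC2gm-4 3 lay between CUC2gm-4 1 and 2, and WT 3 was below both of these, so the groups overlapped. Its log2 fold change was 1.89 (SE 0.43, edgeR adjusted p = 0.0398). ATCG00340 and ATCG00350 changed by 2.51 (SE 0.54, edgeR adjusted p = 0.0329) and 2.36 (SE 0.56, edgeR adjusted p = 0.0457), and within genotypes ATCG00340 was 2.29 in WT, 4.1 in cuc2-3 and 0.27 in CUC2gm-4. Without cuc2-3 3 the log2 fold changes were 1.27 for ATCG00340, 1.0 for ATCG00350 and 0.976 for ATCG00490, none of which passed (edgeR adjusted p = 0.201, 0.214 and 0.236). Without WT 3 these 3 did not pass either. With the replicate block 8 plastid transcripts rose and 1 fell. All 16 mitochondrial transcripts tested had positive values, with a median of 0.85 in WT, 3.24 in cuc2-3 and 0.20 in CUC2gm-4, and 1 passed, against 3 with the replicate block and 0 without cuc2-3 1. cuc2-3 3 was also the library with the lowest share of mapped reads; the part of that in these values was not tested.

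Of 16 tested markers of root, meristem, stomatal lineage, vascular and trichome cells 0 passed in edgeR without the replicate block. With it SUC2, the sucrose carrier of phloem companion cells, was lower (log2 fold change -0.83 and edgeR adjusted p = 0.0703 without the block, 0.0266 with it). The summed levels were 28.0 to 47.2 normalised CPM in replicate 3 against 3.62 to 42.8 in replicates 1 and 2 for 4 shoot meristem genes, 75.2 to 103.9 against 62.8 to 127.6 for 6 stomatal lineage genes, 94.2 to 113.2 against 107.9 to 177.7 for 4 vascular genes, and 76.4 to 102.8 against 62.0 to 109.3 for 3 trichome genes. The 5 root genes gave 112.9 to 183.2 against 103.7 to 177.1, nearly all from PYK10, with at most 6 counts of any other in a library. Floral genes were at most 16 counts in any library and were not tested. No marker of the 6 lists was at 0 in every library. The summed vascular markers overlapped between replicate 3 and the others, but within each genotype replicate 3 was lowest. They were 94.2 in WT 3 against 177.7 and 116.1, 113.2 in cuc2-3 3 against 151.1 and 127.7, and 98.1 in CUC2gm-4 3 against 129.1 and 107.9. Of the 4 vascular genes, SUC2 alone lay below both other libraries of its genotype in all 3 genotypes. Of the 4 log2 fold changes 3 were negative and 1 was positive. No other summed marker list had replicate 3 at the same end in all genotypes. The part of any marker list in the results was not tested.

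The shortest of 3 equal classes of gene length had a median log2 fold change of 0.10, with 156 genes that rose and 75 that fell, the middle class 0.01, with 155 and 78, and the longest class -0.07, with 66 and 64. The part of this in the calls was not tested.

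**Figure D5:**
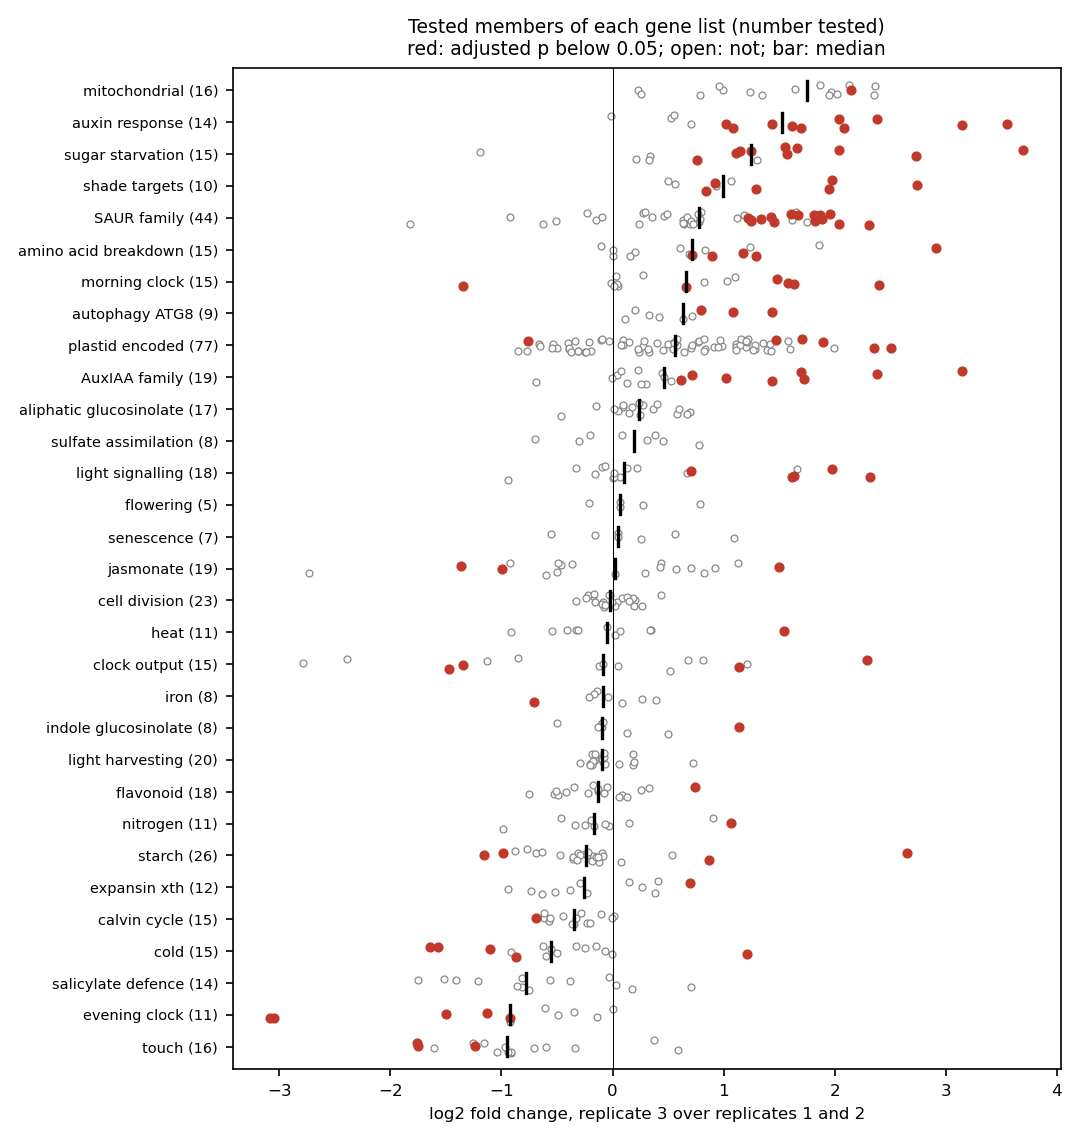
Log2 fold change of replicate 3 over replicates 1 and 2 (horizontal axis) for each tested member of each gene list other than cell type markers and ribosomal proteins (vertical axis, number tested in brackets), red where the edgeR adjusted p was below 0.05 and open otherwise, with a bar at the list's median. The mitochondrial list has the highest median, 1.76, with 1 of 16 members red. Auxin response, sugar starvation and shade targets follow, with medians of 1.52, 1.24 and 0.997 and most members red. Touch and evening clock have the lowest medians, -0.95 and -0.92.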

How the data were processed

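The deposited files held raw read counts per gene model, 1 file per library, made by the authors with sam2pkm against TAIR10, per the file headers and the submitters' processing notes. Reads with equally good best alignments had been removed, per the file headers, which lowers the counts of near-identical gene copies. The sources used here do not give the aligner or whether counting used strand, so overlapping and antisense genes are uncertain.

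Genes with at least 1 CPM in at least 3 libraries were kept, 18291 of 33602. edgeR 4.0.16 (R 4.3.3) fitted genotype and replicate 3 against 1 and 2 to all 9 libraries with TMM scaling, and its quasi-likelihood test was adjusted by Benjamini-Hochberg over all genes at 0.05. Alternatives were DESeq2 1.42.0, voom (limma 3.58.1), other scalings, filters and blocks, and leaving out libraries or genotypes. Same-numbered libraries deviated together from their genotype means over the tested genes. In 9 pairs r ran from 0.404 to 0.582 for number 3 and from 0.195 to 0.535 for numbers 1 and 2. Pairs of a number 1 with a number 2 library gave -0.234 to 0.181. Because each genotype mean includes number 3, a shared deviation of number 3 by itself pushes those of numbers 1 and 2 toward each other. The numbers may thus pair the libraries, and the labels say nothing of the source of such a pairing. In that case number 3 is 1 unit against 2. The main fit treats the 9 libraries as independent, so its p-values do not measure the spread between units. Counts of libraries of a genotype differed by more than sampling noise, with chi-square per gene from 36.1 to 113.4. Totals of 17361433 to 27734410 counts put 3 counts at 0.108 to 0.173 CPM; this floor covers counting error only.

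Named genes were, in each direction, at most 15 called genes of largest change with a mean of at least 5 CPM and replicate 3 beyond both other libraries in all 3 genotypes, all clock list members, up to 6 called members of each other list, and CUC2. COR27, AT4G33980, CO, EXO, PIN3, PIF3, PIF4, PIF5, PIF7, HY5, CBP60G, WRKY54, SUC2, STM, KNAT1 and PYK10 were named after their values were seen. The members and lists were chosen with earlier results of these data known, and 5 lists (amino acid breakdown, ATG8, shade targets, SAUR, Aux/IAA) after their values were seen; some lists share genes. Promoter sequence and names came from RefSeq TAIR10.1, matching 32835 of 33602 gene models by identifier.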

Additional observations from a re-analysis of the deposited data

Results flagged for a closer look

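The 6 libraries of numbers 1 and 2 were searched for a library far from the other 5, in 128 measures, the named genes and the library measures. The gap from the extreme library to its nearest neighbour, divided by the range of the 6, exceeded Dixon's critical value for 6 samples in 8 measures. Chance gives such a gap in about 1 of 20 groups of like samples, and 8 of 128 is close to that rate. The measures are not independent and the 6 libraries are of 3 genotypes. The total therefore cannot tell whether chance gave these gaps. In 6 of the 8 the library was cuc2-3 1 and it was the lowest. FKF1 was at 15.9 normalised CPM there with a gap ratio of 0.781, ELF4 at 2.85 with 0.712, TOC1 at 33.3 with 0.725, PRR3 at 6.93 with 0.807, GRP7 at 1122 with 0.862 and AT1G07050 at 7.35 with 0.628. These 6 genes fell in replicate 3, so in cuc2-3 1 they lay nearer to the level of replicate 3 than in the other 5 libraries.

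AT3G58660, a ribosomal protein gene that fell in replicate 3, was highest in WT 1, at 90.7 normalised CPM with a gap ratio of 0.645. HAT3, a shade-responsive homeodomain gene that rose in replicate 3, was highest in CUC2gm-4 1, at 43.4 normalised CPM with a gap ratio of 0.739.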

How the results depend on the processing

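The comparison of replicate 3 with replicates 1 and 2, 377 genes higher and 217 lower, gave 651 and 716 in DESeq2, 884 and 777 with no filter on low counts, 618 and 409 with the replicate block, 16 and 2 without any WT library and 57 and 24 without any cuc2-3 library. Leaving out 1 library or 1 replicate number at a time gave 30 to 517 higher and 8 to 331 lower, lowest without WT 3 and highest without CUC2gm-4 2. Voom, DESeq2 size factors, library totals, nuclear genes alone, no genotype block and leaving out CUC2gm-4 gave counts within 1.5 times of these. The interaction with genotype gave 0 with DESeq2 size factors, 42 in DESeq2 and 178 with no filter. Number 1 against 2 gave 358 in DESeq2, 862 with no filter, 8 in the 6 libraries of those numbers alone (chosen after seeing the data) and 0 to 46 with 1 library left out. Of the 106 called genes chosen for naming, 106 stayed called in DESeq2, 105 with its size factors, 103 with library totals, 106 with the replicate block, 88 without cuc2-3 1, 30 of 105 without cuc2-3 3, 23 of 105 without WT 3 and 10 of 104 without any WT library. Fewer libraries enter these last fits.

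The signs that turned were of uncalled genes with values near 0. LNK1 was -0.0073 in DESeq2, -0.0071 with its size factors, -0.00040 with no filter, -0.069 without cuc2-3 and -0.092 without CUC2gm-4, and LKP2 was -0.014, -0.014, -0.0061, -0.042 and -0.096 in the same settings. RVE2 was 0.048 with library totals. Without WT, AT5G52660 was -0.056, RVE7 -0.074 and PRR7 -0.035. Without CUC2gm-4, RVE7 was -0.14, PRR9 -0.23 and CUC2 -0.085. With 1 library or number left out, values ran from -0.17 to 0.24 for LNK1, -0.18 to 0.24 for LKP2, -0.16 to 0.082 for RVE2, -0.30 to 0.048 for ZTL, -0.062 to 0.20 for AT5G52660, -0.41 to 0.74 for RVE7, -0.093 to 0.16 for PRR7, -0.22 to 0.90 for PRR9 and -0.077 to 0.39 for CUC2. The cause of these changes was not tested.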
